A study of Mus musculus with 15 samples.

Results

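D cyclins, their partner kinases and the CDK inhibitors were followed as 10 named genes of the G1 phase of the cell cycle: the D cyclins Ccnd1, Ccnd2 and Ccnd3, the kinases Cdk4 and Cdk6, and the inhibitors Cdkn1a (p21), Cdkn1b (p27), Cdkn2a (p16Ink4a and p19Arf), Cdkn2b (p15Ink4b) and Cdkn2c (p18Ink4c). They were chosen by name, and all 10 were found among the 49585 genes of the count table and passed the filter on low counts in each of 5 comparisons. RNA-Seq of poly(A) RNA covered 15 libraries, 3 in each of 5 groups. The 005 cells are a mouse glioma stem cell (GSC) line of C57BL/6 background kept in serum-free stem cell medium. Tumor-derived endothelial cells (TDECs) were obtained from 005 in endothelial medium (EGM-2) at 1% oxygen and were sampled on day 2, or without a day in the label and taken as the untreated TDECs of day 5 that the study describes. A further group of TDECs received 5 µM sertraline on day 5 and was collected 24 hours later. If the untreated group was collected on day 5, the treated group was also older. Mouse brain microvascular endothelial cells (MBMECs) were purchased and grown in a serum-containing medium of their own, with no oxygen level given, so cell type and culture cannot be told apart in the comparison with them. Every group but MBMECs came from the 1 line 005. No oxygen level is given for 005. Differentiation, medium, time in culture and any difference in oxygen cannot be told apart in the comparisons of TDECs with 005. Titles of the 005, day 2 and untreated TDEC libraries begin with 1st, and those of the sertraline and MBMEC libraries do not. What this prefix marks is not stated. Any difference it stands for cannot be told apart from treatment or cell type.

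D cyclins are made in response to growth signals and activate CDK4 and CDK6. The active kinases phosphorylate the retinoblastoma protein RB, which then lets go of the E2F factors that switch on the genes of DNA synthesis. The INK4 inhibitors, encoded by Cdkn2a, Cdkn2b and Cdkn2c, bind CDK4 and CDK6 themselves, whereas p21 and p27 bind cyclin-CDK complexes. p21 is a classical target of p53, and p19Arf, the second product of Cdkn2a, restrains the p53 antagonist Mdm2. Deletion of CDKN2A and amplification of CDK4 are frequent in glioblastoma.

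The libraries held 11283680 to 17093061 counts, and levels are given as CPM, the usual depth-scaled read count, after scaling by trimmed means (TMM) over all 15 libraries. Replicate 3 stood apart in 005 and on day 2, where the chi-square per gene was 11.1 to 11.7 against the other libraries of its group and 2.15 and 2.50 between those, and replicate 2 stood apart among the sertraline libraries, at 6.97 to 7.27 against 2.28. The summed level of 6 endothelial markers lay between 5282 and 5375 CPM in MBMECs, and only between 4.80 and 5.74 CPM in untreated TDECs, 4.88 and 12.6 CPM on day 2, 4.87 and 8.11 CPM with sertraline and 2.17 and 3.37 CPM in 005, with Cldn5 at 0 in 005 and in all 3 TDEC groups. The endothelial markers were thus near 0 in TDECs, and the name TDEC is used here as the label gives it. The two-sided quasi-likelihood test of edgeR was used to compare groups, with Benjamini-Hochberg adjustment over all genes tested, and calls needed an adjusted p under 0.05 together with a log2 fold change past 1, that is a fold of 2. The 5 comparisons share groups and are not independent of one another. The study calls the libraries of TDECs before and after sertraline biological replicates. The labels do not say that the libraries of any group came from separate cultures. These p-values therefore measure the spread between libraries, which may be technical. In bulk RNA, fewer cells that express a gene and less of its RNA per cell cannot be told apart.

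**Figure D1:**
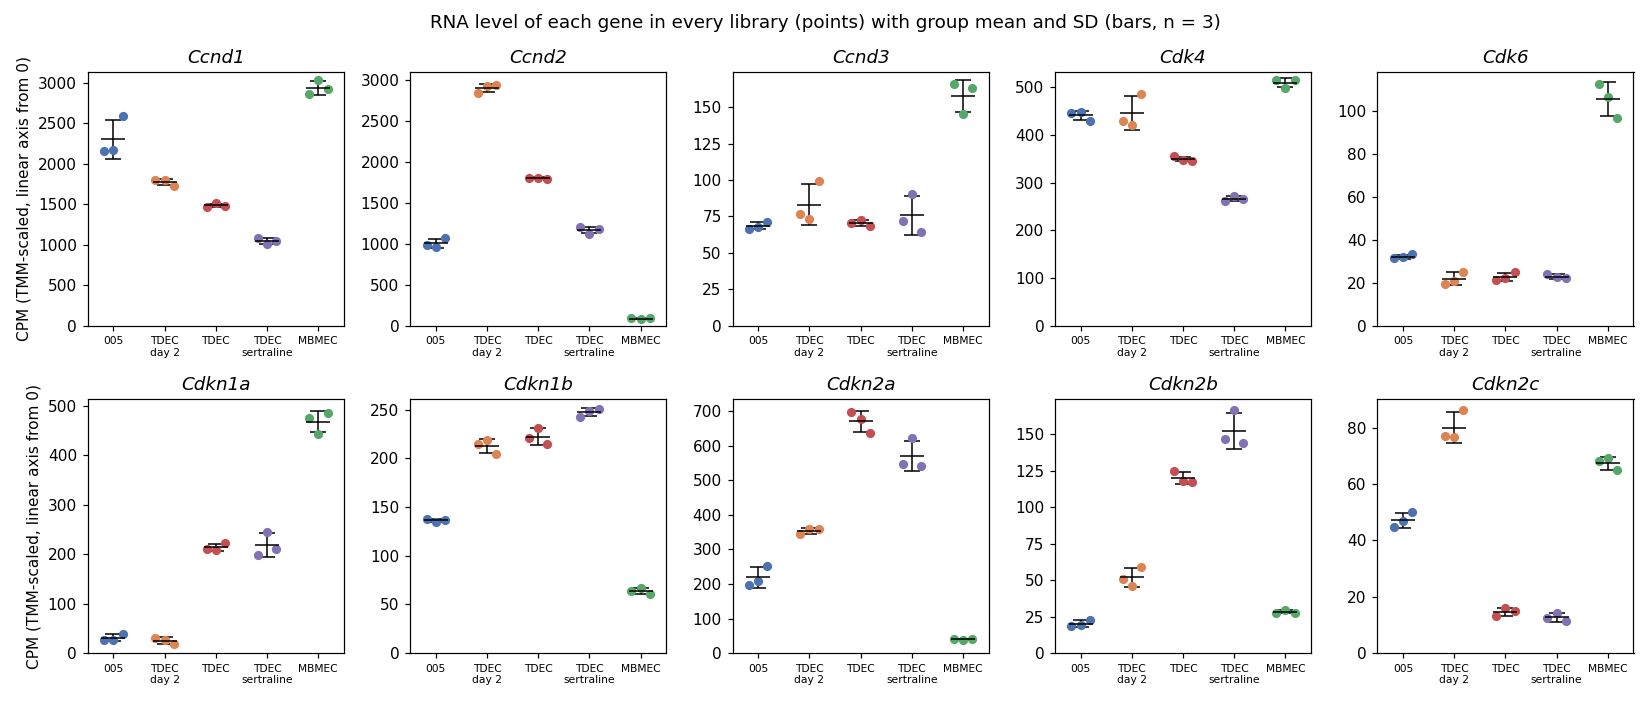
RNA level of the 10 genes in CPM (vertical axes, linear and starting at 0) in the 15 libraries of the 5 groups (points), with the mean and SD of each group of 3 (bars). Ccnd2 peaked on day 2 at 2906 CPM and was lowest in MBMECs at 88.9 CPM, Cdkn1a was low in 005 and on day 2 and high in the later TDECs, and Cdkn2c showed the opposite order of these groups.

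Among the D cyclins, Ccnd2 (chr6:127125162-127152193, minus strand, mm10) had the widest range, with a 32.7-fold difference between its highest and lowest group. Ccnd2 measured 992, 965 and 1070 CPM in the 3 libraries of 005, 2848, 2930 and 2940 CPM on day 2, 1806, 1810 and 1796 CPM in untreated TDECs, 1201, 1125 and 1188 CPM with sertraline, and 93.8, 82.8 and 90.03 CPM in MBMECs. No neighbouring groups overlapped in this order, which ran from day 2 through untreated TDECs, sertraline and 005 to MBMECs. Ccnd2 rose from 005 to day 2 with a log2 fold change of 1.51 (SE 0.07, edgeR adjusted p = 9.67e-08). It stood at a log2 fold change of −0.70 from day 2 to untreated TDECs (SE 0.04, edgeR adjusted p = 5.84e-08), which did not reach the fold of 2, and the untreated TDECs were still above 005 by 0.82 (edgeR adjusted p = 4.85e-08). The summed CPM of the 3 D cyclins was 3378 ± 301 (SD, n = 3) in 005, 4763 ± 43.8 on day 2, 3359 ± 28.9 in untreated TDECs, 2293 ± 66.7 with sertraline and 3185 ± 71.1 in MBMECs. These sums are not divided by gene length, and the place of untreated TDECs in them rests on it. Summed per kilobase of exon, untreated TDECs lay below both 005 and MBMECs.

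Ccnd1 (chr7:144929931-144939925, minus strand) followed another order. Its 3 libraries gave 2153, 2164 and 2583 CPM in 005, 1793, 1801 and 1726 CPM on day 2, 1471, 1510 and 1473 CPM in untreated TDECs, 1083, 1008 and 1046 CPM with sertraline, and 2860, 3032 and 2923 CPM in MBMECs. No libraries of different groups overlapped, and each TDEC group lay below 005. The log2 fold changes were −0.39 on day 2 against 005 (SE 0.08, edgeR adjusted p = 2.43e-03) and −0.65 in untreated TDECs against 005 (SE 0.07, edgeR adjusted p = 4.94e-06), both short of the fold of 2. Ccnd3 (chr17:47505051-47599691, plus strand) had the lowest level per kilobase of exon among the D cyclins in every group except MBMECs. It averaged between 68.7 and 83.1 CPM in 005 and the 3 TDEC groups, and 158 ± 11.0 CPM in MBMECs, whose libraries lay above all others. Libraries of neighbouring groups overlapped below the MBMECs, although those of day 2, at 76.7, 73.4 and 99.1 CPM, all lay above those of 005 and of untreated TDECs. These differences did not pass the test, at log2 fold changes of 0.25 on day 2 against 005 (edgeR adjusted p = 0.0951) and −0.25 in untreated TDECs against day 2 (edgeR adjusted p = 0.0558).

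Division by exon length changes how these levels compare between genes. Per kilobase of exon, Ccnd2 made up 17.8% ± 0.776% (SD, n = 3) of D cyclin RNA in 005, 44.5% ± 0.782% on day 2, 37.2% ± 0.287% in untreated TDECs, 35.1% ± 0.396% with sertraline and 1.45% ± 0.127% in MBMECs. Ccnd1 made up the larger share in all 5 groups on this scale, from 54.2% on day 2 to 95.8% in MBMECs, and Ccnd3 took 1.30% to 2.77%. The order of Ccnd1 and Ccnd2 within TDECs rests on the length: without division by length Ccnd2 held 61.0%, 53.7% and 51.1% of D cyclin counts on day 2, in untreated TDECs and with sertraline. With the longest annotated transcript as the length, Ccnd3 took 4.04% to 8.56%. The Ccnd2 share was larger on day 2 than in 005 on all 3 of these scales.

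**Figure D2:**
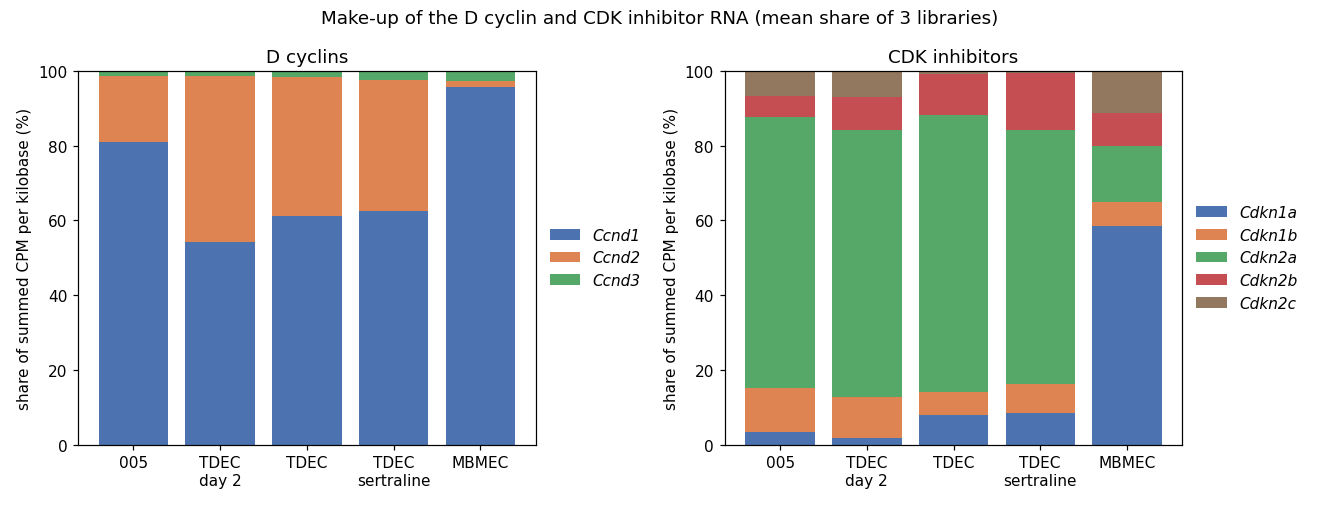
Share of each gene in the summed CPM per kilobase of exon (vertical axis, %) of the 3 D cyclins (left) and of the 5 CDK inhibitors (right), as the mean of 3 libraries per group. Ccnd2 took 44.5% of D cyclin RNA on day 2 and 1.45% in MBMECs, and Cdkn2a took the largest part of inhibitor RNA in 005 and all TDEC groups but 14.96% in MBMECs, where Cdkn1a took 58.6%.

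Both leading D cyclins overlap a gene of the opposite strand, and the sources used here do not give the strand setting of the counting, although the libraries were made with a directional kit. Oraov1 shares 1771 bases with Ccnd1, and its count was 28.9% to 35.4% of that of Ccnd1 in the 15 libraries (median 30.9%). Gm43126 shares 994 bases with Ccnd2 and had 6.71% to 8.97% of its count (median 7.66%). These shares stayed within narrow bounds while Ccnd1 itself varied 2.81-fold and Ccnd2 32.7-fold between groups, and Oraov1 and Gm43126 varied 2.93-fold and 35.0-fold. If strand was not used, reads of the overlapping stretch cannot be told apart between the members of each pair. The kinase Cdk4 overlaps Tspan31 in the same way, at 20.8% to 56.0% of its count, and Ccnd3 overlaps Bysl, at 62.8% to 121%, so these pairs did not keep a steady ratio.

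**Figure D3:**
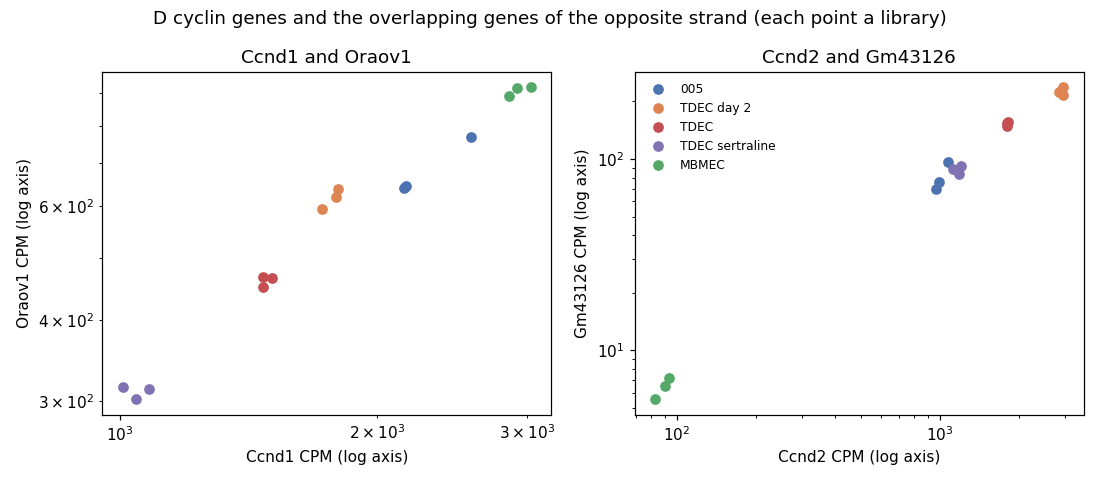
CPM of Oraov1 against Ccnd1 (left) and of Gm43126 against Ccnd2 (right), both axes logarithmic, with each point 1 of 15 libraries. The points of both pairs lie near a straight line over all 5 groups, with the count of Oraov1 at 28.9% to 35.4% of that of Ccnd1 and that of Gm43126 at 6.71% to 8.97% of that of Ccnd2.

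Of the kinases that the D cyclins activate, Cdk4 (chr10:127063534-127067920, plus strand) varied least of the 10 genes. It measured 445, 448 and 429 CPM in 005, 429, 421 and 486 CPM on day 2, 355, 348 and 346 CPM in untreated TDECs, 261, 271 and 265 CPM with sertraline and 515, 498 and 515 CPM in MBMECs. The 005 and day 2 libraries overlapped, and the other groups stood apart from them and from one another. The difference between day 2 and 005 was −0.00 on the log2 scale (edgeR adjusted p = 0.972), and that between untreated TDECs and 005 was −0.35 (SE 0.05, edgeR adjusted p = 6.74e-05). Cdk6 (chr5:3341485-3531008, plus strand) was low in 005 and its derivatives, at 32.2 ± 0.961 CPM (SD, n = 3) in 005 and between 21.9 and 22.9 CPM on average in the 3 TDEC groups, whose libraries overlapped. In MBMECs it measured 113, 107 and 96.9 CPM. Per kilobase of exon, Cdk4 accounted for 95.4% to 98.9% of the RNA of this pair in every group.

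The 4 promoter stretches printed here belong to the inhibitors called higher in untreated TDECs than in 005 and to the Cdk4 gene, which carries a repeated motif. They were taken from RefSeq (GRCm38.p6), cover up to 250 bases before the annotated start and leave out bases inside exons of the gene. Capitals mark the motif found. The Cdkn1a stretch is that of the first of 2 promoters, chr17:29090729-29090975 on the plus strand. It holds 3 ten-base sites of the p53 element, which form 2 pairs. The second Cdkn1a promoter, chr17:29093519-29093768 on the plus strand, held neither the p53 element nor any other motif searched. Cdkn2b holds the cAMP response element TGACGTCA, 46 bases before the start, in chr4:89311040-89311282 on the minus strand. The Cdkn2a stretch is that before the start of the p16Ink4a transcript, chr4:89282193-89282442 on the minus strand, with the E2F motif TTTNNCGC. Cdk4 holds the E-box CACGTG 4 times, at 172, 118, 98 and 11 bases before the start, in chr10:127063285-127063533 on the plus strand.
Cdkn1a: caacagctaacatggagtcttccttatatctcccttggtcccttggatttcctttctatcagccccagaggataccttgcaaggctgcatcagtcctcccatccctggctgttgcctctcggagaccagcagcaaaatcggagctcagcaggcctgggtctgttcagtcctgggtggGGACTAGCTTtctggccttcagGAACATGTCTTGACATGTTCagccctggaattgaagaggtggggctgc
Cdkn2b: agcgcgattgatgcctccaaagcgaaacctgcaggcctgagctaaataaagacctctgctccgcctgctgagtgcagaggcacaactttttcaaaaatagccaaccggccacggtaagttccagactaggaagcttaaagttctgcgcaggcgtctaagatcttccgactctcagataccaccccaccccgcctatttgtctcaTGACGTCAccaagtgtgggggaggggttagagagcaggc
Cdkn2a: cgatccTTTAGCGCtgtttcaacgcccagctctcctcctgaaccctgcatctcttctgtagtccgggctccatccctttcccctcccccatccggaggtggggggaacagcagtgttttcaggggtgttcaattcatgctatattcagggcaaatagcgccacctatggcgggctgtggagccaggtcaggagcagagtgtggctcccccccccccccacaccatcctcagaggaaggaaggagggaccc
Cdk4: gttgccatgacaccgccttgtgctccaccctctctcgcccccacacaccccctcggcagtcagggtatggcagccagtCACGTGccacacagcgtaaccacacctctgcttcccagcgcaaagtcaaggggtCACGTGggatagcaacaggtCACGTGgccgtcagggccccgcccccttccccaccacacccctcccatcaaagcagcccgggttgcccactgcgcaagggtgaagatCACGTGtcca
Both strands of the 250 bases were searched for AP-1 (TGANTCA), the cAMP response element, the E-box, the E2F motif and the core ACGTG of hypoxia response elements, the last of which is contained in every E-box. These are in 6.75%, 1.55%, 6.02%, 4.28% and 16.6% of 32851 mouse promoters. The p53 element was searched as a pair of ten-base sites 0 to 13 bases apart with at most 1 mismatch, was added after the Cdkn1a promoter had been seen, and is in 0.898% of promoters. The promoter of p19Arf held 1 E2F motif, that of Cdk6 held 1 E2F motif and 1 E-box, and none of the motifs was found in the promoters of Cdkn1b and Ccnd3. Of 2 promoters of Cdkn2c, 1 held the core ACGTG 2 times and the other held none of the motifs. Both of these Cdkn2c stretches begin, at the base farthest from the start, inside an exon of the gene. Ccnd1 and Ccnd2 have no entry in the promoter table used. A match is a description of the sequence and does not show that a factor binds there.

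Between untreated TDECs and 005, 4 of the 5 inhibitors were called and 0 of the 5 cyclins and kinases, of which 4 had an adjusted p under 0.05 with a change below the fold of 2. Over all 15648 genes tested, 13.1% were called higher and 10.4% lower. The share of them with an adjusted p under 0.05 alone is not given here. Cdkn1a (chr17:29090979-29100722, plus strand), the inhibitor p21, measured 26.9, 26.3 and 39.4 CPM in 005, 31.0, 26.7 and 18.2 CPM on day 2, 210, 208 and 222 CPM in untreated TDECs, 198, 245 and 211 CPM with sertraline and 476, 444 and 485 CPM in MBMECs. The 005 and day 2 libraries overlapped, the untreated and sertraline-treated TDECs overlapped at a higher level, and the MBMEC libraries lay above all others. From day 2 to untreated TDECs Cdkn1a rose with a log2 fold change of 3.06 (SE 0.14, edgeR adjusted p = 1.16e-08), and from 005 to untreated TDECs with one of 2.77 (SE 0.13, edgeR adjusted p = 2.07e-09). On day 2 against 005 the value was −0.30 (edgeR adjusted p = 0.249), and it turned to 0.12 without replicate 3 of both groups, the libraries that stood apart.

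Cdkn2b (chr4:89306289-89311032, minus strand), which encodes p15Ink4b, was higher at both steps. Its libraries gave 18.3, 19.3 and 22.6 CPM in 005, 50.9, 45.9 and 59.1 CPM on day 2, 124, 118 and 117 CPM in untreated TDECs, 147, 167 and 144 CPM with sertraline and 27.7, 29.4 and 27.6 CPM in MBMECs. No libraries of different groups overlapped. It rose from 005 to day 2 with a log2 fold change of 1.35 (SE 0.12, edgeR adjusted p = 1.12e-05) and from day 2 to untreated TDECs with one of 1.19 (SE 0.09, edgeR adjusted p = 4.93e-07). Among the 10 genes, Cdkn2b was the only one called higher at both of these steps.

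Cdkn2a (chr4:89274471-89294653, minus strand) lies 11635 bases from Cdkn2b and gave 196, 208 and 253 CPM in 005, 345, 360 and 359 CPM on day 2, 698, 678 and 637 CPM in untreated TDECs, 548, 622 and 542 CPM with sertraline and 41.2, 36.7 and 40.4 CPM in MBMECs. Its groups did not overlap either. It rose from 005 to untreated TDECs with a log2 fold change of 1.599 (SE 0.09, edgeR adjusted p = 1.09e-08), through steps of 0.68 on day 2 (edgeR adjusted p = 2.51e-04) and 0.91 after it (edgeR adjusted p = 7.38e-08) that each stayed under the fold of 2. The count is for the whole gene and does not separate the transcripts of p16Ink4a and p19Arf. Of 2 neighbouring genes, the metabolic gene Mtap measured 63.5 ± 7.91 CPM (SD, n = 3) in 005, 70.7 ± 14.7 CPM on day 2 and 40.1 ± 1.13 CPM in untreated TDECs. Mtap was lower in untreated TDECs by less than the fold of 2. Its log2 fold changes were −0.68 against 005 (edgeR adjusted p = 3.53e-05) and −0.83 against day 2 (edgeR adjusted p = 1.51e-04). Dmrta1 was low, at 1.11 ± 0.247 CPM in 005, 0.499 ± 0.236 CPM on day 2 and 2.91 ± 0.150 CPM in untreated TDECs, where it was called higher than in 005 (1.37, edgeR adjusted p = 7.41e-04) and than on day 2 (2.48, edgeR adjusted p = 1.34e-04).

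Cdkn2c (chr4:109660876-109667189, minus strand), which encodes p18Ink4c, went the other way after day 2. It measured 44.8, 46.7 and 50.1 CPM in 005, 77.0, 76.7 and 86.4 CPM on day 2, 13.2, 16.04 and 14.9 CPM in untreated TDECs, 12.6, 14.3 and 11.2 CPM with sertraline and 68.1, 69.3 and 64.9 CPM in MBMECs. The untreated and sertraline-treated TDECs overlapped and lay below every other library. From day 2 to untreated TDECs Cdkn2c fell by 2.45 on the log2 scale (SE 0.09, edgeR adjusted p = 2.37e-09), and against 005 by 1.69 (SE 0.10, edgeR adjusted p = 1.61e-08). Cdkn1b (chr6:134920401-134925513, plus strand), the inhibitor p27, gave 138, 135 and 136 CPM in 005, 215, 219 and 205 CPM on day 2 and 221, 231 and 214 CPM in untreated TDECs. Its level was above 005 from day 2 on by less than the fold of 2, at log2 fold changes of 0.62 (edgeR adjusted p = 5.39e-05) and 0.69 (edgeR adjusted p = 4.88e-07).

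The summed CPM of the 5 inhibitors was 454 ± 41.4 (SD, n = 3) in 005, 725 ± 5.57 on day 2, 1241 ± 32.0 in untreated TDECs, 1201 ± 83.2 with sertraline and 667 ± 17.9 in MBMECs. These sums are not divided by length, and the order of 005 and MBMECs in them rests on it. Summed per kilobase of exon, MBMECs lay below 005, but not with the longest annotated transcript as the length. Per kilobase of exon, Cdkn2a made up 67.9% to 74.0% of inhibitor RNA in 005 and the TDEC groups, and the share of Cdkn2c went from 7.03% on day 2 to 0.710% in untreated TDECs. The share of Cdkn1a was 1.69% on day 2 and 7.79% in untreated TDECs.

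**Figure D4:**
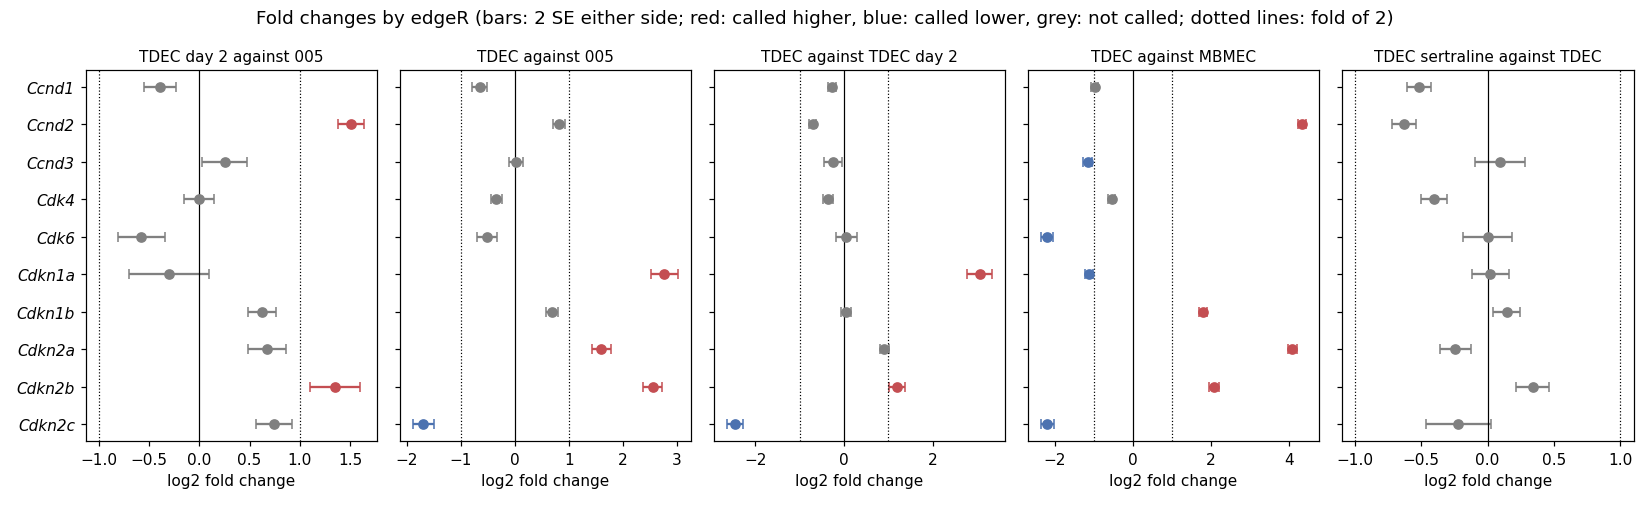
Log2 fold changes of the 10 genes (horizontal axes, with a scale of their own in each panel) in the 5 comparisons by edgeR, with bars of 2 SE on either side and dotted lines at a fold of 2. Between untreated TDECs and day 2, Cdkn1a (3.06) and Cdkn2b (1.19) were called higher and Cdkn2c (−2.45) lower, and no gene was called with sertraline.

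Counted over the 10 genes, day 2 against 005 gave 2 called higher, Ccnd2 and Cdkn2b, and 0 lower, where 5.35% and 4.48% of the 15344 genes tested were called higher and lower. The median log2 fold change of the 10 genes was 0.44 against −0.02 over all genes tested. Of the 10 genes, 8 had groups that did not overlap, 8 an unadjusted p under 0.05 and 7 an adjusted p under 0.05, and DESeq2 called 2 in all. The shares of all genes tested without overlap or at these p cutoffs are not given here. These counts therefore do not show anything particular to the 10 genes. Untreated TDECs against day 2 gave 2 higher and 1 lower, against 11.1% and 9.35% of 15508 genes, with medians of −0.10 and 0.00. Untreated TDECs against 005 gave 3 higher, Cdkn1a, Cdkn2b and Cdkn2a, and 1 lower, Cdkn2c, against 13.1% and 10.4% of 15648 genes, with medians of 0.36 and −0.01. All of these calls belonged to inhibitors except that of Ccnd2 on day 2.

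Genes downstream of the D cyclins were called lower at the later step, after day 2. Of 13 E2F target genes of DNA synthesis, 0 were called on day 2 (log2 fold changes of −0.03 to 0.34, median 0.14), and 13 of 13 were lower in untreated TDECs than on day 2 (−5.87 to −1.54, median −3.08) and than in 005 (−5.52 to −1.45, median −2.75). Those with the smallest adjusted p between untreated TDECs and day 2 were Rrm1 at −3.31, Mcm5 at −3.99, Rrm2 at −5.87 and Mcm3 at −3.21. Rrm2, a subunit of ribonucleotide reductase, went from 195 ± 23.9 CPM (SD, n = 3) in 005 and 249.3 ± 26.0 CPM on day 2 to 4.27 ± 1.01 CPM in untreated TDECs. Of 6 proliferation markers, 0 were called on day 2 and 6 were lower in untreated TDECs than on day 2, with a median of −5.002, among them Mki67 at −5.19, Top2a at −4.51, Ccnb1 at −4.94 and Plk1 at −5.34. Of 8 genes of the cyclin E, cyclin A and CDK2 step, 4 were lower than on day 2: Ccna2 at −4.02, Ccne2 at −2.89, Ccne1 at −2.65 and Cdc25a, the phosphatase that activates CDK2, at −1.11. The counts of 13 and 6 held in every alternative computed, including those without the libraries that stood apart.

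Of 13 genes of the RB and E2F families, 5 were lower in untreated TDECs than on day 2 and 0 higher. They were E2f8 at −5.24, E2f7 at −3.56, Rbl1, a relative of RB, at −2.94, E2f2 at −2.59 and Tfdp1, the partner of E2F factors, at −1.13. Rb1 itself stayed at 48.4 ± 5.07 CPM (SD, n = 3) in 005, 48.5 ± 3.66 CPM on day 2 and 48.8 ± 3.38 CPM in untreated TDECs. Of 6 genes for the turnover of D cyclins and p27, 2 were lower, Skp2, the ubiquitin ligase subunit that marks p27, at −2.27 and its cofactor Cks1b at −1.59. Of the other CDK inhibitors, Cdkn2d (p19Ink4d) went from 45.9 ± 2.80 CPM on day 2 to 13.6 ± 1.37 CPM in untreated TDECs, a fall by 1.77 on the log2 scale, so that it moved in the direction of Cdkn2c and not of Cdkn2a and Cdkn2b. Cdkn1c (p57) was called lower on day 2, but averaged only 2.66 CPM in 005 and 0.881 CPM on day 2, and its call was lost without 005 replicate 2, 005 replicate 3 or day 2 replicate 2 and with a replicate block.

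**Figure D5:**
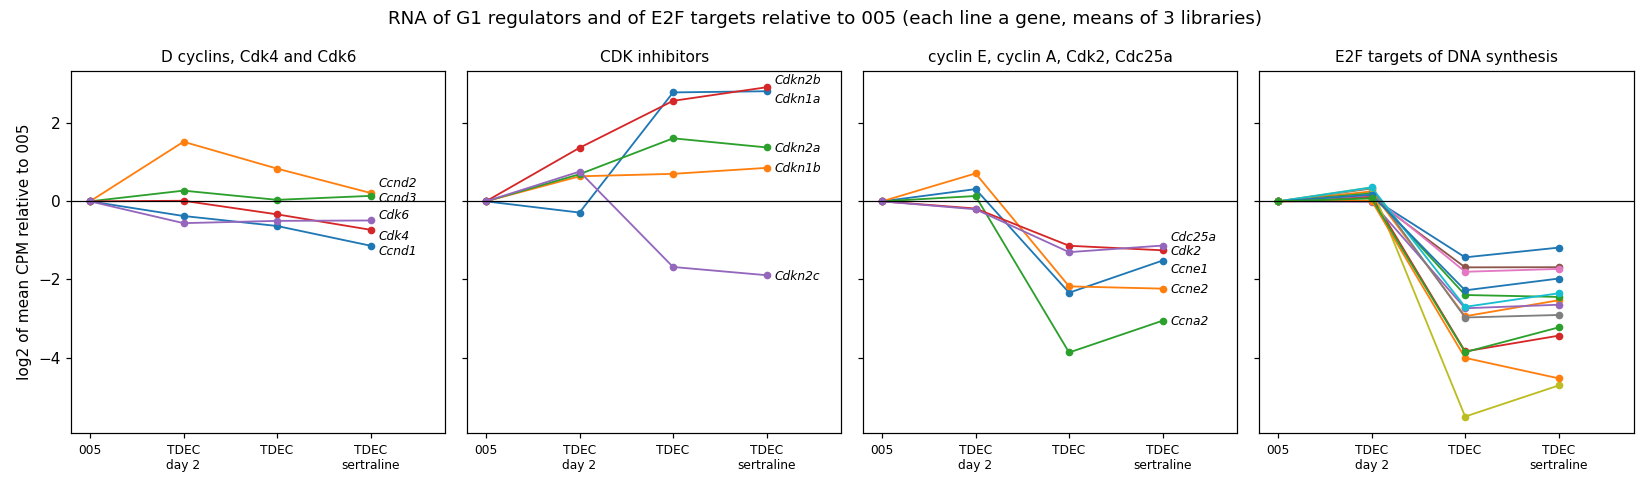
Mean CPM of each gene relative to 005 (vertical axis, log2), as 1 line per gene over 005, TDEC day 2, untreated TDECs and TDECs with sertraline. The 13 E2F targets (right) lie between −0.01 and 0.36 on day 2 and between −5.51 and −1.43 in untreated TDECs, where the D cyclins and their kinases (left) lie between −0.63 and 0.84.

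Of 13 transcriptional regulators known to act on these genes, 3 were higher and 1 lower in untreated TDECs than on day 2, where 11.1% and 9.35% of all genes tested were called. Klf4, an activator of Cdkn1a, went from 1.11 ± 0.472 CPM (SD, n = 3) on day 2 to 41.2 ± 1.99 CPM, and Trp53, which encodes p53, from 38.1 ± 3.88 to 77.9 ± 1.85 CPM, with log2 fold changes of 5.17 and 1.02. The third was the Polycomb gene Cbx7 at 1.12, and Ezh2, the Polycomb methyltransferase, fell by 2.17. Without day 2 replicate 3 the number of higher calls was 1 in place of 3. On day 2 against 005, Tbx2, a repressor of Cdkn1a and Cdkn2a, was higher at 1.58, and Myc and Klf4 were lower at −1.27 and −1.41, and without replicate 3 of both groups the counts were 2 higher and 1 lower. What part any of these had in the levels of the 10 genes was not tested.

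Against the MBMECs, 4 of the 10 genes were higher in untreated TDECs and 4 lower, where 28.1% and 20.8% of 16135 genes tested were called higher and lower. The median log2 fold change of the 10 genes was −0.76 against 0.09 over all genes tested. Ccnd2 was higher by 4.35 (SE 0.05, a fold of 20.3, edgeR adjusted p = 6.49e-32) and Cdkn2a by 4.09 (SE 0.06, a fold of 17.0, edgeR adjusted p = 1.99e-30). The INK4 gene Cdkn2b was higher by 2.09 (SE 0.06, edgeR adjusted p = 1.7e-22), and Cdkn1b, at 63.7, 67.1 and 60.2 CPM in MBMECs, by 1.81 (SE 0.05, edgeR adjusted p = 1.87e-22). Lower in TDECs were Cdk6 at −2.21, Cdkn2c at −2.19, Ccnd3 at −1.16 and Cdkn1a at −1.13, with edgeR adjusted p-values of 4.85e-21, 4.69e-20, 2.85e-17 and 1.02e-18 in that order. Ccnd1 lay just short of the fold of 2 at −0.98 (SE 0.04, edgeR adjusted p = 4.45e-19), and passed it at −1.02 with all genes of at least 1 count or without MBMEC replicate 1 and at −1.003 without MBMEC replicate 3.

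On the per-kilobase scale, Cdkn1a held 58.6% of inhibitor RNA in MBMECs and 7.79% in untreated TDECs, and Cdkn2a 14.96% and 74.0%. All 13 E2F targets and all 6 proliferation markers were lower in untreated TDECs than in MBMECs, with medians of −3.29 and −4.44. Cdkn1a was higher in MBMECs than in TDECs beside higher levels of the E2F targets, whereas within the 005 lineage Cdkn1a was higher in the TDECs in which the E2F targets were lower. Of the 13 transcriptional regulators, 5 were higher in untreated TDECs than in MBMECs and 3 lower. Over all genes tested, 28.1% were called higher and 20.8% lower. Higher were Cbx7 at 4.96, Foxo3 at 2.32, Mycn at 2.24, Tbx2 at 1.42 and Foxo4 at 1.02. Lower were Mdm2 at −1.54, Trp53 at −1.42 and Foxo1 at −1.06. Mycn was low in both groups, at 2.42 ± 0.230 CPM (SD, n = 3) in untreated TDECs and 0.507 ± 0.382 CPM in MBMECs.

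With sertraline, 0 of the 10 genes were called higher and 0 lower by edgeR, where 1.82% and 3.26% of 15540 genes tested were called, and DESeq2 called 0 of them. Of the 10 genes, 6 had an unadjusted p under 0.05, and the same number had an adjusted p under 0.05 with a change below the fold of 2. The share of all genes tested at these p cutoffs alone is not given here. The count therefore does not show anything particular to the 10 genes. Ccnd2 stood at −0.63 on the log2 scale (SE 0.04, edgeR adjusted p = 3.73e-08), Ccnd1 at −0.51 (SE 0.05, edgeR adjusted p = 4.78e-07) and Cdk4 at −0.41 (SE 0.05, edgeR adjusted p = 1.01e-05), with all sertraline libraries below all untreated ones for these 3 genes. The summed D cyclin CPM of 2293 ± 66.7 was the lowest of the 5 groups. Cdkn2b stood at 0.34 (SE 0.06, edgeR adjusted p = 5.91e-04), Cdkn2a at −0.24 (SE 0.06, edgeR adjusted p = 4.32e-03) and Cdkn1b at 0.14 (SE 0.05, edgeR adjusted p = 0.0399). For Cdkn2c the value was −0.22 with an interval of −0.47 to 0.02 (edgeR adjusted p = 0.175).

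Of the 13 E2F targets 0 were called (median 0.24), and of the 6 proliferation markers 1 was called higher (median 0.75). All 6 had an adjusted p under 0.05 and a value above 0, again without the share of all genes tested at that cutoff. Below the fold of 2 were Top2a at 0.85, Ccnb1 at 0.83, Aurkb at 0.67, Cdk1 at 0.48 and Mki67 at 0.48. The mitotic kinase Plk1 was higher at 1.12, from 3.62 ± 0.416 CPM (SD, n = 3) to 7.93 ± 0.366 CPM, still far below the 146 ± 10.4 CPM of day 2. E2f8, at 0.974 ± 0.103 CPM in untreated TDECs, was higher at 1.54. The treated cells were collected 24 hours after treatment had begun on day 5. Treatment, any longer culture and whatever the prefix of the library titles marks therefore cannot be told apart.

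The genes most like each of the 10 were sought by Pearson's r of log2(CPM + 0.5) over the 15 libraries among 10917 genes that reached 10 CPM in a group. These libraries fall into 5 groups, so r describes group levels, and Cdk4 was left out because it varied by less than a fold of 2. Ccnd1 was most like Oraov1 (r = 0.986), the gene that overlaps it, and next to it Lmo1 (r = 0.972). Ccnd2 was most like Hip1 (r = 0.998) and Golm1 (r = 0.996), and Cdkn2a like Adgrb1 (r = 0.997). Cdkn1a was most like Prnp (r = 0.991) and Tnks1bp1 (r = 0.988), and Cdkn2b like Errfi1 (r = 0.989) and Cldn12 (r = 0.983). Cdkn2c was most like Rfc2, a subunit of the clamp loader of DNA replication (r = 0.992), and the tubulin gene Tubb5 (r = 0.991). Cdkn1b was most like Tbl2 (r = 0.996) and Slc37a3 (r = 0.996), Ccnd3 like Nxn (r = 0.980) and Tm4sf1 (r = 0.979), and Cdk6 like Aen (r = 0.991) and Hspa12b (r = 0.991).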

How the data were processed

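Poly(A) RNA of 15 libraries was sequenced, and the authors deposited raw counts of reads per gene, without normalization. Tools named in the processing notes of the submitters were featureCounts 1.6.3, HISAT2 2.1.0, Trimmomatic 0.38 and bcl2fastq 2.19, and the build was mm10. The counting strand and the annotation release are not given in the sources used here.

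Counts were compared with edgeR 4.0.16 in R 4.3.3 (glmQLFit and glmQLFTest) between the 6 libraries of each comparison, after TMM scaling and filterByExpr at a minimum count of 10, and p-values were adjusted by Benjamini-Hochberg over all genes tested. Alternatives were other scalings, all genes with at least 1 count, DESeq2 1.42.0, 1 fit of all 15 libraries, a replicate block and leaving out single libraries. Leaving out replicate 3 of both groups was added after the data had been seen. Exon lengths came from GENCODE vM21. The test was tried on simulated data before use. Depth was 11283680 to 17093061 counts per library, which limits precision mainly for genes at a few CPM.

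The 10 genes, the gene lists and the tests were chosen with earlier results of these data known. Besides the 10, genes were named by rule: up to 4 called genes per list, direction and comparison by smallest adjusted p, and the 2 most alike genes, of which 1 is not reported here. E2f2, Rb1, Mycn and the sertraline values of proliferation markers were named after their values had been seen, as were overlapping genes.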

Additional observations from a re-analysis of the deposited data

How the results depend on the processing

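All 17 calls on the 10 genes kept direction and call in 223 of 223 alternatives, and the counts of the 10 genes called in each comparison stayed within 1.5 times. Of 660 single fold changes under alternatives, 632 kept direction and side of the threshold. Ccnd1 in untreated TDECs against MBMECs passed the fold of 2 in 3 alternatives, with −1.015 at a minimum of 1 count and −1.015 to −0.975 without single libraries. The 25 values that turned direction belonged to 7 results, with adjusted p-values of 0.169 or more. Cdk4 on day 2 against 005 was 0.016 with RLE size factors, 0.015 with DESeq2, 0.013 at a minimum of 1 count, 0.014 in 1 fit of all libraries and −0.071 to 0.059 without single libraries. Cdkn1a in the same comparison lay between −0.472 and 0.12 without libraries. Ccnd3 in untreated TDECs against 005 was −0.107 with plain library totals and −0.007 to 0.049 without single libraries, and Cdk6 in untreated TDECs against day 2 was −0.034 to 0.151. With sertraline, Cdkn1a was −0.001 by upper quartile scaling and −0.07 to 0.091 without single libraries, Ccnd3 was −0.054 to 0.201, and Cdk6 was 0.071 with plain library totals, 0.008 with DESeq2, 0.011 at a minimum of 1 count, 0.008 in 1 fit of all libraries and −0.049 to 0.064 without single libraries. The cause of these changes was not tested. Plain library totals moved the median of all genes in untreated TDECs against 005 from −0.01 to −0.14, and moved 18 of 50 group levels by over 1 SD, at most by 7.71%.

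Deviations of libraries with the same replicate number correlated at −0.109 to 0.024, so the numbers were not taken as pairs. With a replicate block the 10 genes had 2 higher and 0 lower on day 2 against 005, and the counts in the other comparisons did not change either. The only turn of a fold change of the 10 genes under the replicate block was Cdk6 with sertraline, at 0.001. Among the other CDK inhibitors, the block gave 0 lower in place of 1 on day 2 against 005 and 2 in place of 1 in untreated TDECs against MBMECs.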
